A study of Sus scrofa with 6 samples.

Results

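The genes described here encode chaperones of the endoplasmic reticulum (ER) and components of the unfolded protein response, read in longissimus dorsi muscle of pigs with an adipocyte-specific UCP1 knock-in (UCP1 KI) and of wild-type (WT) pigs. They were taken by name as a list of 10 genes: *HSPA5*, *HSP90B1*, *CALR*, *CANX*, *PDIA3*, *PDIA4*, *PDIA6*, *XBP1*, *HERPUD1* and *SDF2L1*. Of these, 9 had a row in the table of 30476 Ensembl pig genes and all 9 passed the filter on low counts, which kept 13402 genes for testing. *SDF2L1* matched no row by its identifier and was not analysed here. The comparison was between 3 UCP1 KI pigs and 3 WT pigs, all aged 6 months, with 1 library of the back muscle per pig. The knock-in was made by genome editing and its UCP1 is expressed in adipocytes, so the muscle itself was not the target of the transgene. The name *UCP1* matched no row either. The study reported no *UCP1* mRNA in the muscle of either group, so counts of it there would not show the genotype. The genotype was not checked here.

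The ER is where secreted and membrane proteins fold, and in muscle fibres a specialised part of it, the sarcoplasmic reticulum, stores the calcium for contraction. When unfolded proteins accumulate there, the sensors IRE1 (gene *ERN1*), PERK (*EIF2AK3*) and ATF6 signal to the nucleus. IRE1 cuts the *XBP1* mRNA, whose spliced form encodes an active transcription factor, and ATF6 and XBP1 raise the genes of chaperones and of degradation. Counts per gene do not separate spliced from unspliced *XBP1*, so the activity of IRE1 was not measured here.

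In the RefSeq annotation of the assembly Sscrofa11.1, which is the build in the submitters' processing notes, the 9 genes lie on 7 chromosomes, and the positions are those of the whole genes, introns included. *HSPA5* (ENSSSCG00000005601) spans 265930044 to 265934959 and *PDIA3* (ENSSSCG00000004700) 127786174 to 127814096 on chromosome 1. On chromosome 2 lie *CALR* (ENSSSCG00000013746), at 66098263 to 66102074, and *CANX* (ENSSSCG00000014020), at 78879031 to 78915828. *PDIA6* (ENSSSCG00000008633) is at 125752079 to 125774225 on chromosome 3, and *HSP90B1* (ENSSSCG00000000849) at 80511513 to 80531016 on chromosome 5. *HERPUD1* (ENSSSCG00000040663) is at 18901171 to 18913427 on chromosome 6, *PDIA4* (ENSSSCG00000015453) at 109260850 to 109280256 on chromosome 9, and *XBP1* (ENSSSCG00000030996) at 46011239 to 46016526 on chromosome 14.

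Levels are given as CPM, the counts of a gene after scaling to a common library total, with totals adjusted by the TMM method of edgeR, and are compared between pigs within a gene and never between genes, since they are not divided by length. The counts on genes totalled 30220951 to 35066624 per library. The TMM factor was lowest for WT replicate 2, at 0.781, and highest for UCP1 KI replicate 2, at 1.18, and the 20 most abundant genes held 56.5% of the counts in WT replicate 2 and between 39.0% and 44.8% in the other pigs. The 4 fibre markers with a row, *ACTA1*, *CKM*, *TNNT3* and *ENO3*, summed to between 49923 and 90502 CPM in UCP1 KI pigs and to between 69002 and 103120 CPM in WT pigs.

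*HSPA5*, *HSP90B1*, *PDIA4* and *HERPUD1* were higher in UCP1 KI pigs past both limits used here. These were a log2 fold change of more than 0.5 in either direction and an unadjusted p under 0.05 in the quasi-likelihood test of edgeR. They are 4 of the 9 genes, where 3.84% of all genes tested were higher past the limits and 8.19% were past them in either direction. After Benjamini-Hochberg adjustment over all 13402 genes, 0 of the 9 genes and 0% of all genes had an adjusted p under 0.05 in edgeR, where 1100 genes had an unadjusted p under 0.05. DESeq2 on the same genes gave 127 genes at that adjusted limit and 0 of them were among the 9, with the smallest adjusted p of 0.0689 for *HSPA5*. The median log2 fold change of the 9 genes was 0.67, beside -0.02 for all genes tested, and 8 of the 9 had a log2 fold change above 0. *HSPA5*, *PDIA4* and *HERPUD1* had all 3 UCP1 KI pigs above all 3 WT pigs, which held for 7.59% of all genes tested.

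**Figure D1:**
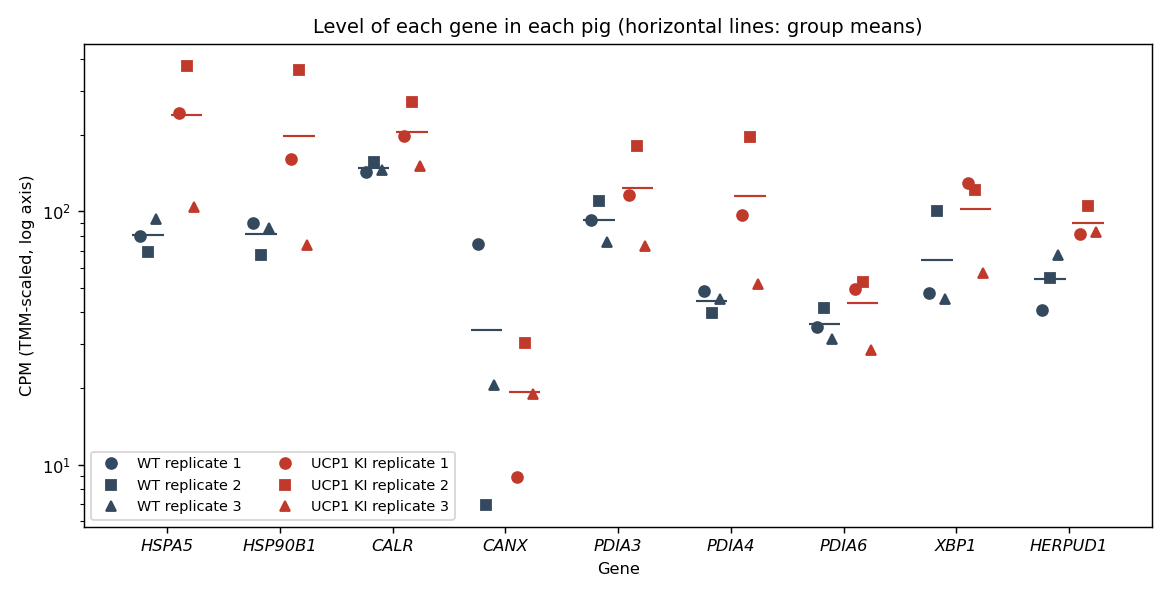
Level of the 9 genes in each pig, in CPM on a log axis, with WT pigs in dark blue and UCP1 KI pigs in red, marker shapes for the replicate number and horizontal lines for the group means (n = 3). UCP1 KI replicate 2 (red squares) is the highest of the 6 pigs for 7 of the 9 genes, and *CANX* has the widest spread in WT pigs.

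*HSPA5* encodes BiP, the Hsp70 chaperone of the ER lumen that holds the stress sensors inactive until unfolded proteins draw it away. It was measured at 244, 375 and 104 CPM in UCP1 KI replicates 1 to 3, and at 79.9, 69.3 and 92.9 CPM in WT replicates 1 to 3. The groups did not overlap, but UCP1 KI replicate 3 lay close to the WT pigs and the other UCP1 KI pigs lay far above them. The means of 241 ± 136 CPM (SD of 3 pigs) and 80.7 ± 11.8 CPM (SD of 3 pigs) are 2.99-fold apart. The log2 fold change was 1.58, with a standard error (SE) of 0.45, an unadjusted p of 0.00834 and an adjusted p of 0.583 from edgeR. *HSPA5* was the only 1 of the 9 genes to pass both limits in all 6 fits that leave out 1 pig, with log2 fold changes between 1.11 without UCP1 KI replicate 2 and 1.94 without UCP1 KI replicate 3. An exact two-sided permutation test of log2(CPM + 1) gave p = 0.1, the smallest value that 3 pigs against 3 allow.

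*HSP90B1* encodes GRP94, the Hsp90 chaperone of the same compartment, which folds integrins, Toll-like receptors and insulin-like growth factors. Its levels were 161, 363 and 73.6 CPM in UCP1 KI replicates 1 to 3 and 89.9, 67.5 and 86.3 CPM in WT replicates 1 to 3. Here the groups overlapped, because UCP1 KI replicate 3 fell below WT replicates 1 and 3. The log2 fold change of 1.29 (SE 0.53, unadjusted p = 0.0414, adjusted p = 0.603 from edgeR) fell to 0.53 without UCP1 KI replicate 2. It was 1.68, and still past the limits, without UCP1 KI replicate 3. Without any of the other 4 pigs it lay between 1.18 and 1.43, with an unadjusted p of 0.0525 to 0.1099 from edgeR. *HSP90B1* was also not past the limits with limma (1.01, unadjusted p = 0.0922) or with the replicate number as a block (1.001, unadjusted p = 0.114 from edgeR).

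Calreticulin (*CALR*) and calnexin (*CANX*) are the lectin chaperones, which bind the trimmed glycans of new glycoproteins, and calreticulin also buffers calcium. *CALR* was at 198, 271 and 151 CPM in UCP1 KI replicates 1 to 3 and at 143, 157 and 145 CPM in WT replicates 1 to 3. The WT pigs were within 1.1-fold of each other, and UCP1 KI replicate 3 fell between them. The log2 fold change of 0.48 (SE 0.28, unadjusted p = 0.124 from edgeR) was not past the limits, with a 95% confidence interval from -0.16 to 1.121. Without UCP1 KI replicate 3 it passed them, at 0.66.

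*CANX* was the member with a log2 fold change below 0, -0.81 (SE 0.80, unadjusted p = 0.343 from edgeR), and its values varied most. It was at 8.93, 30.2 and 18.9 CPM in UCP1 KI replicates 1 to 3 and at 74.0, 6.94 and 20.7 CPM in WT replicates 1 to 3. WT replicate 1 was 10.7-fold above WT replicate 2, and the UCP1 KI pigs lay between them. How reads were assigned to this gene is not given in the sources used here, and its part in the spread was not tested. Without WT replicate 1 the log2 fold change was 0.48, the opposite sign. The 95% confidence interval, from -2.67 to 1.05, includes 0.

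The protein disulfide isomerases make and rearrange disulfide bonds. *PDIA3* (ERp57) works with calnexin and calreticulin on glycoproteins, and *PDIA4* (ERp72) and *PDIA6* (P5) are found with BiP and GRP94. *PDIA4* was at 96.6, 196 and 51.8 CPM in UCP1 KI replicates 1 to 3 and at 48.7, 39.7 and 44.9 CPM in WT replicates 1 to 3. As with *HSPA5*, the groups did not overlap and UCP1 KI replicate 3 was nearest to the WT pigs. The mean of 115 ± 73.7 CPM (SD of 3 pigs) was 2.58-fold the WT mean of 44.4 ± 4.50 CPM (SD of 3 pigs). The log2 fold change of 1.37 (SE 0.46, unadjusted p = 0.0177, adjusted p = 0.583 from edgeR) lost the limits without UCP1 KI replicate 2, at 0.74, and without WT replicate 2, at 1.29.

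*PDIA3* was at 116, 182 and 72.8 CPM in UCP1 KI replicates 1 to 3 and at 92.7, 109 and 75.9 CPM in WT replicates 1 to 3. UCP1 KI replicate 3 was the lowest of the 6 pigs and UCP1 KI replicate 2 the highest. The log2 fold change was 0.41 (SE 0.36, unadjusted p = 0.281 from edgeR), and 0.02 without UCP1 KI replicate 2. *PDIA6* was at 49.5, 52.4 and 28.3 CPM in UCP1 KI replicates 1 to 3 and at 35.1, 41.6 and 31.4 CPM in WT replicates 1 to 3. Its log2 fold change of 0.27 (SE 0.29, unadjusted p = 0.384 from edgeR) was the smallest in size of the 9, with a 95% confidence interval from -0.40 to 0.94, so that a doubling was not within it but no difference was. The interval for *PDIA3*, from -0.42 to 1.24, held both.

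*XBP1* was at 129, 121 and 57.3 CPM in UCP1 KI replicates 1 to 3 and at 47.8, 100 and 45.3 CPM in WT replicates 1 to 3. In each group 1 pig stood apart from the others, UCP1 KI replicate 3 at the low end and WT replicate 2 at the high end. The log2 fold change was 0.67 (SE 0.43, unadjusted p = 0.158 from edgeR), and it passed both limits without WT replicate 2, at 1.14.

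*HERPUD1* encodes Herp, a membrane protein of the ubiquitin ligase complex that removes misfolded proteins from the ER. It was at 81.4, 105 and 83.3 CPM in UCP1 KI replicates 1 to 3 and at 41.0, 54.8 and 67.1 CPM in WT replicates 1 to 3. All UCP1 KI pigs were above all WT pigs, and of the 4 genes past the limits it was the one in which the UCP1 KI pigs were most alike, within 1.29-fold. The means of 89.9 ± 13.2 CPM (SD of 3 pigs) and 54.3 ± 13.1 CPM (SD of 3 pigs) are 1.66-fold apart, a log2 fold change of 0.73 (SE 0.26, unadjusted p = 0.0252, adjusted p = 0.583 from edgeR). It was no longer past the p limit when UCP1 KI replicate 2 was left out (0.59), nor for WT replicate 1 (0.56) and WT replicate 2 (0.73).

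**Figure D2:**
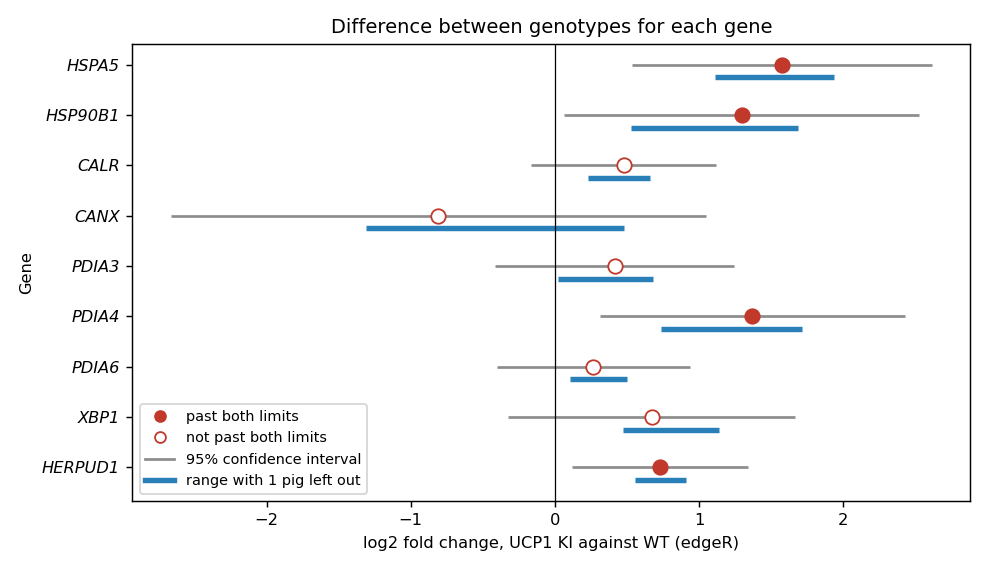
Log2 fold change of each gene, UCP1 KI against WT, from edgeR (circles, filled where past both limits), with the 95% confidence interval (grey) and the range over the 6 fits that leave out 1 pig each (blue). The intervals of *HSPA5*, *HSP90B1*, *PDIA4* and *HERPUD1* lie above 0, that of *HSP90B1* from 0.07, and the range of *CANX* spans 0.

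The UCP1 KI pigs differed among themselves in these genes. The mean over the 9 genes of log2(CPM + 1), each gene centred on its mean over the 6 pigs, was 0.28, 0.94 and -0.29 in UCP1 KI replicates 1 to 3 and -0.18, -0.41 and -0.35 in WT replicates 1 to 3. UCP1 KI replicate 2 thus stood highest, and UCP1 KI replicate 3 lay within the range of the WT pigs. UCP1 KI replicate 2 was the highest pig for 7 of the 9 genes, where it was the highest for 17.1% of all genes tested. The median SD of log2(CPM + 1) over the 9 genes was 0.65 for UCP1 KI and 0.22 for WT pigs, beside 0.27 and 0.32 over all genes tested. The SD was larger in UCP1 KI pigs for 7 of the 9 genes, WT pigs being the more variable for *CANX* and *HERPUD1*, and it was larger in UCP1 KI pigs for 43.2% of all genes tested. Without UCP1 KI replicate 2 only *HSPA5* was past both limits, 1 of the 9 genes, and the share of all genes past them was 4.92% in place of 8.19%. Without WT replicate 2, *HSPA5* and *XBP1* were past them, so that 1 of the original 4 genes remained, beside 5.19% of all genes. Without WT replicate 1 they were *HSPA5* and *PDIA4*, beside 7.84% of all genes. Without UCP1 KI replicate 3, *CALR* joined the original 4 genes, beside 8.33% of all genes.

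**Figure D3:**
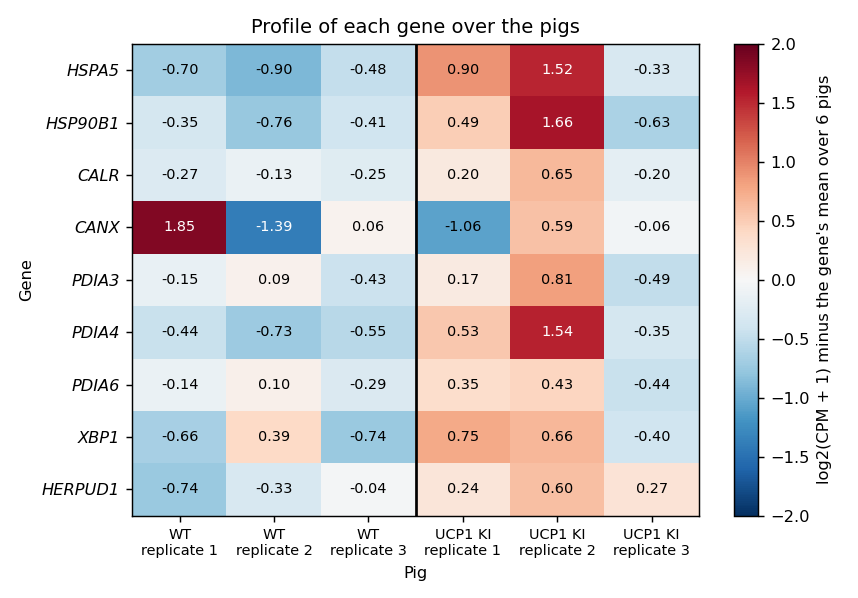
Profile of the 9 genes (rows) over the 6 pigs (columns), as log2(CPM + 1) minus the mean of the gene over all pigs, with red for above and blue for below that mean. *HSPA5*, *HSP90B1* and *PDIA4* share one pattern, with 1.52, 1.66 and 1.54 in UCP1 KI replicate 2, whereas *CANX* reaches 1.85 in WT replicate 1.

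The genes nearest to *HSPA5* were sought among all tested genes with a symbol, by the root mean square difference between centred log2(CPM + 1) profiles over the 6 pigs. The nearest of all was *PDIA4* (0.20 on the log2 scale), and *HSP90B1* (0.27) was the fifth. Between them stood *SEPTIN1* (0.25), *CD3E* (0.25) and *CD2* (0.26). *CD3E* and *CD2* encode surface proteins of T lymphocytes, and *SEPTIN1* a septin. *CD3E* was at 2.91, 7.04 and 1.03 CPM in UCP1 KI replicates 1 to 3 and at 1.27, 0.621 and 1.17 CPM in WT replicates 1 to 3. Unlike *HSPA5*, it overlapped between the groups, as did *CD2* and *SEPTIN1*. At levels this low, the 1 added to CPM narrows the log2 differences. The UCP1 KI pigs differed 11.5-fold in *CD2* and 3.62-fold in *HSPA5*, beside a root mean square difference of 0.26. The other 6 members were farther off, from 0.59 for *CALR* to 1.40 for *CANX*.

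Since a T cell receptor component was among the nearest profiles, the markers of other cells were set beside these values. For 11 markers of T lymphocytes and cytotoxic lymphocytes, a list chosen after these values were seen, the summed level was 30.2, 53.2 and 6.596 CPM in UCP1 KI replicates 1 to 3 and 14.4, 18.4 and 6.47 CPM in WT replicates 1 to 3. The list holds *CD3E* and *CD2*, which were found by their likeness to *HSPA5*. The other 9 markers had sums of 23.8, 38.0 and 4.85 CPM in UCP1 KI replicates 1 to 3, against 12.2, 17.0 and 4.77 CPM in WT replicates 1 to 3. With or without *CD3E* and *CD2*, the sum was highest in the same pig as *HSPA5*, and UCP1 KI replicate 3 was low. No test is given for this list, and all 11 markers had counts in at least 1 pig. *HSPA5* did not follow the sum in every pig. It was lowest in WT replicate 2, which had the highest sum of the WT pigs. In UCP1 KI replicate 3 *HSPA5* lay above all WT pigs. A highest sum in UCP1 KI replicate 2 was not particular to T lymphocyte markers. The 10 macrophage markers had sums of 108, 187 and 46.8 CPM in UCP1 KI replicates 1 to 3, against 70.3, 136 and 52.2 CPM in WT replicates 1 to 3, so that UCP1 KI replicate 2 was the highest and UCP1 KI replicate 3 the lowest of the 6 pigs, with 0 of 9 tested past the limits and *LYZ* at 0 in every pig. The 10 markers of B lymphocytes and plasma cells, cells rich in ER, summed to between 86.9 and 131 CPM and to between 92.2 and 117 CPM, with the same highest and lowest pigs and 0 of the 6 tested past the limits. The 6 endothelial markers summed to between 330 and 586 CPM and to between 297 and 577 CPM, again highest in UCP1 KI replicate 2, 1 of them higher past the limits. The adipocyte markers, 8 in all, summed to between 371 and 538 CPM in UCP1 KI pigs and to between 433 and 704 CPM in WT pigs, with 1 higher and 1 lower of 7 tested. Of these 7 genes, 6 had a log2 fold change below 0, and the median was -0.85. Fibroblast markers were lower in UCP1 KI pigs. Their 9 genes summed to between 490 and 751 CPM in UCP1 KI pigs and to between 1150 and 1774 CPM in WT pigs, with 5 of 9 lower past the limits, *COL1A1* at -1.86 on the log2 scale among them. In muscle RNA, more cells of a type and more RNA per cell cannot be told apart, and the part of these cells in the chaperone levels was not tested.

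The other genes of the pathway were taken from lists chosen by function. Among 20 tested genes of the sensors and signal transducers, 1 was higher past both limits and 0 were lower, with a median log2 fold change of 0.23. The count past the limits was 1 without UCP1 KI replicate 1, 2 without WT replicate 3 and 0 without any of the other 4 pigs, and 3 were higher with library size only. DESeq2 and limma each gave 1 higher and 1 lower gene. *ERN1*, the sensor that cuts *XBP1* mRNA, was at 22.6 ± 10.9 CPM (SD of 3 pigs) in UCP1 KI pigs and 18.4 ± 6.11 CPM (SD of 3 pigs) in WT pigs, a difference of 0.30 on the log2 scale (SE 0.44). *ATF6* was at 19.8 ± 4.44 CPM (SD of 3 pigs) and 15.6 ± 8.11 CPM (SD of 3 pigs), a log2 fold change of 0.34 (SE 0.42). For *EIF2AK3* it was -0.10 (SE 0.24), and 0.14 with library size only. *DDIT3*, the transcription factor CHOP of prolonged stress, was at 35.0, 15.2 and 24.2 CPM in UCP1 KI replicates 1 to 3 and at 20.1, 18.1 and 16.5 CPM in WT replicates 1 to 3. It was lowest in the pig in which *HSPA5* was highest, and its log2 fold change was 0.44 (SE 0.32, unadjusted p = 0.208 from edgeR). With 1 pig left out, that of *DDIT3* ran from 0.12 without UCP1 KI replicate 1 to 0.69 without UCP1 KI replicate 2, and that of *ATF6* from 0.0018 without WT replicate 2 to 0.77 without WT replicate 3. *ATF3*, a stress-induced transcription factor named here after its values were seen, had the largest change in size of the list and lay below WT in every UCP1 KI pig. It was at 309, 288 and 98.5 CPM in UCP1 KI replicates 1 to 3 and at 536, 324 and 489 CPM in WT replicates 1 to 3, a log2 fold change of -0.96 (SE 0.45, unadjusted p = 0.0694 from edgeR). *ATF4* matched no row and was not analysed here. The gene past the limits was *RTCB*, the ligase that joins the cut *XBP1* mRNA, at 43.7 ± 11.5 CPM (SD of 3 pigs) against 22.6 ± 10.3 CPM (SD of 3 pigs), with a log2 fold change of 0.95 (SE 0.37, unadjusted p = 0.0340 from edgeR). *RTCB* was past the limits in 2 of the 6 fits with 1 pig left out, those without UCP1 KI replicate 1 or WT replicate 3.

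Of 48 other folding genes of the ER, 5 were higher past both limits and 1 was lower (12.5%), and their median of 0.08 was close to that of all genes tested. *P4HB*, the founding disulfide isomerase, was at 60.4, 94.6 and 71.4 CPM in UCP1 KI replicates 1 to 3 and at 34.3, 42.9 and 59.9 CPM in WT replicates 1 to 3, without overlap. *MANF*, a secreted protein of the ER stress response that binds BiP, was at 63.3, 73.6 and 29.8 CPM against 27.1, 29.4 and 31.5 CPM, so that UCP1 KI replicate 3 again lay among the WT pigs. *DNAJC3*, a co-chaperone of BiP, had 31.9, 38.5 and 21.0 CPM against 18.7, 21.0 and 9.84 CPM. The log2 fold changes of *P4HB*, *MANF* and *DNAJC3* were 0.72, 0.92 and 0.88, with unadjusted p values of 0.0406, 0.0289 and 0.0402 from edgeR. *DNAJC1* (0.80) and *FKBP14* (1.04), a prolyl isomerase, were the other higher genes, and *DNAJC25* (-0.64) was the lower one. *DNAJC25* was not past the limits with library size only (-0.39) or with no filter on low counts (-0.61), nor was *FKBP14* with limma (0.92). All 5 higher genes were highest in UCP1 KI replicate 2, and without this pig, or without WT replicate 1, 0 of the 48 genes were past the limits. Without UCP1 KI replicate 1 the list had 1 higher and 3 lower genes, without WT replicate 2 it had 2 higher and 0 lower, and without WT replicate 3 it had 3 of each.

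Several genes that respond to ER stress in other cells were not past the limits. *HYOU1*, an Hsp70-like exchange factor of BiP, was higher in every UCP1 KI pig, at 30.6, 23.9 and 18.0 CPM against 17.5, 15.5 and 16.8 CPM, with a log2 fold change of 0.54 (SE 0.26, unadjusted p = 0.0706 from edgeR). *HYOU1* passed the limits with library size only (0.76) and without UCP1 KI replicate 3 (0.72). *DNAJB11*, another co-chaperone of BiP, was at 19.0 ± 3.999 CPM (SD of 3 pigs) against 15.3 ± 1.90 CPM (SD of 3 pigs). *DNAJB9*, a target of XBP1, had 13.4 ± 2.18 CPM (SD of 3 pigs) against 11.8 ± 5.24 CPM (SD of 3 pigs). *CRELD2* was at 8.20 ± 2.501 CPM (SD of 3 pigs) against 8.03 ± 0.963 CPM (SD of 3 pigs), a log2 fold change of 0.03 (SE 0.29) whose sign changed with the settings. *SERPINH1*, the collagen chaperone HSP47, was at 312, 305 and 57.0 CPM in UCP1 KI replicates 1 to 3 and at 122, 82.3 and 89.8 CPM in WT replicates 1 to 3. Its log2 fold change of 1.198 (SE 0.58, unadjusted p = 0.0737 from edgeR) was not past the limits here, with UCP1 KI replicate 3 the lowest pig of all. *SERPINH1* passed them with DESeq2 (1.204), with no filter on low counts (1.21), with library size only (1.39) and without UCP1 KI replicate 3 (1.65).

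The 33 tested genes of ER-associated degradation had a median log2 fold change of 0.25, and 5 were higher past both limits (15.2%) and 0 lower. These were the ATPase gene *VCP*, which pulls substrates out of the membrane, *NPLOC4*, its cofactor, *UBXN4*, which recruits VCP to the ER, *TMUB1* and *BAG6*. *VCP* was at 208, 285 and 387 CPM in UCP1 KI replicates 1 to 3 and at 134, 167 and 147 CPM in WT replicates 1 to 3. *UBXN4* was at 64.2, 86.7 and 122 CPM against 38.0, 39.3 and 24.1 CPM. The log2 fold changes were 0.97 for *VCP* (SE 0.29, unadjusted p = 0.0115 from edgeR) and 1.43 for *UBXN4* (SE 0.32, unadjusted p = 0.0025 from edgeR), and both genes were past the limits with each pig left out. *NPLOC4* lost the p limit without WT replicate 2 (0.80). *TMUB1* stayed past the limits only without UCP1 KI replicate 2 or WT replicate 3. *BAG6* did so only without UCP1 KI replicate 1 or WT replicate 3, and fell to 0.40 without UCP1 KI replicate 3. Unlike the 4 members past the limits, which were highest in UCP1 KI replicate 2, all 5 of these genes were highest in UCP1 KI replicate 3. The ligase *SYVN1* and its partner *SEL1L*, with which Herp works, were not past the limits, at log2 fold changes of -0.26 (0.02 with library size only) and -0.33. *SEL1L* stood at 40.2 CPM in UCP1 KI replicate 2 and at 13.6 and 13.5 CPM in the other UCP1 KI pigs, and without UCP1 KI replicate 2 it was lower past the limits, at -1.07. Without WT replicate 2 the list had 2 genes past the limits, and without WT replicate 3 it had 9.

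Of 35 genes of translocation and N-glycosylation, 3 were higher past both limits and 0 lower (8.57%), with a median of 0.09. *SEC63*, which brings BiP to the translocon, was at 33.1, 44.7 and 35.5 CPM in UCP1 KI replicates 1 to 3 and at 14.7, 11.9 and 16.9 CPM in WT replicates 1 to 3. Its log2 fold change of 1.38 (SE 0.25, unadjusted p = 0.000576, adjusted p = 0.358 from edgeR) was 1.24 to 1.51 over the 6 fits that leave out 1 pig. *RPN1* and *OSTC*, of the oligosaccharyltransferase, had log2 fold changes of 0.84 and 0.75, and each was past the limits in 4 of those 6 fits. Without UCP1 KI replicate 2, 1 of the 35 genes was past the limits, and without WT replicate 3, 5 were. Among 19 genes of export by COPII vesicles 1 was past the limits, *PREB*, at 58.2 ± 3.26 CPM (SD of 3 pigs) against 36.2 ± 3.64 CPM (SD of 3 pigs), a log2 fold change of 0.68 (SE 0.21) that held with each pig left out. Without WT replicate 1 the list had 2 higher and 1 lower gene past the limits, and without WT replicate 3 it had 1 of each.

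**Figure D4:**
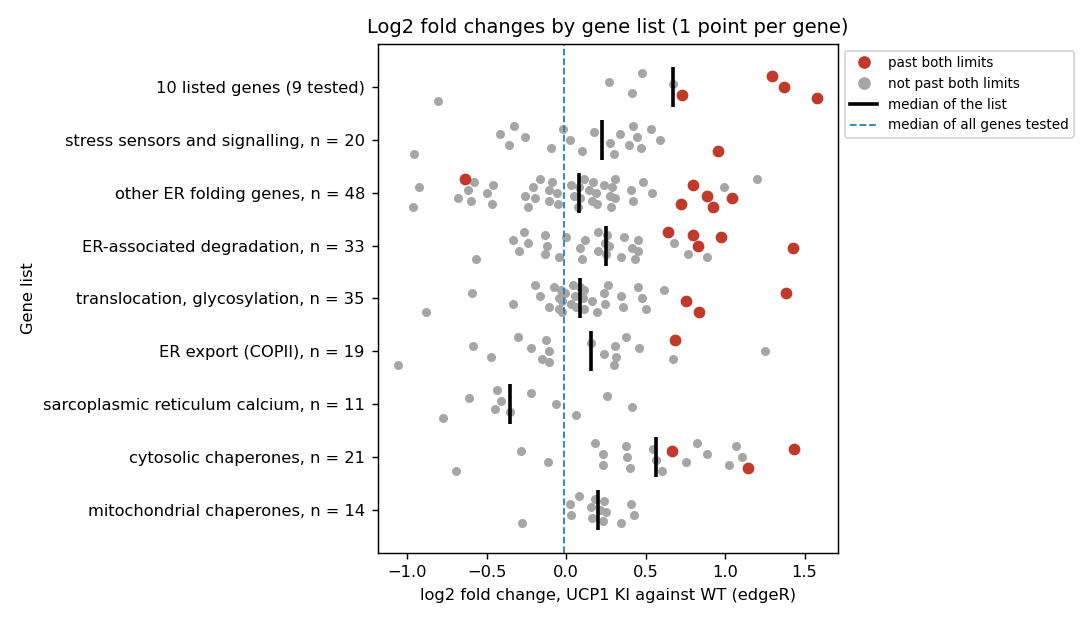
Log2 fold changes (UCP1 KI against WT, edgeR) of the members and of 8 lists chosen by function, 1 point per gene, red where past both limits, with a black bar at the median of each list and a dashed line at that of all genes tested. The median is 0.67 for the members, 0.57 for cytosolic chaperones, 0.08 for other ER folding genes and -0.35 for calcium genes of the sarcoplasmic reticulum.

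For comparison with the other compartments, 21 chaperone genes of the cytosol had a median log2 fold change of 0.57, and 3 of them were higher past both limits and 0 lower (14.3%). *HSP90AB1*, the cytosolic relative of *HSP90B1*, was at 356, 701 and 289 CPM in UCP1 KI replicates 1 to 3 and at 142, 130 and 226 CPM in WT replicates 1 to 3. It was highest in the same pig as *HSP90B1* but did not overlap, and its log2 fold change of 1.44 (SE 0.41, unadjusted p = 0.00883 from edgeR) was past the limits with each pig left out. *BAG3* (1.15) and *HSF1* (0.66), the transcription factor of the heat shock response, were the other genes past the limits. UCP1 KI replicate 2 was the highest pig for 12 of the 21 genes, and 8 genes were past the limits without UCP1 KI replicate 3, against 1 without UCP1 KI replicate 1, UCP1 KI replicate 2 or WT replicate 2. Of 14 chaperone and protease genes of mitochondria, 0 were past the limits, also with each pig left out, and their median was 0.20. Whether the members differed from these lists was not tested.

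**Figure D5:**
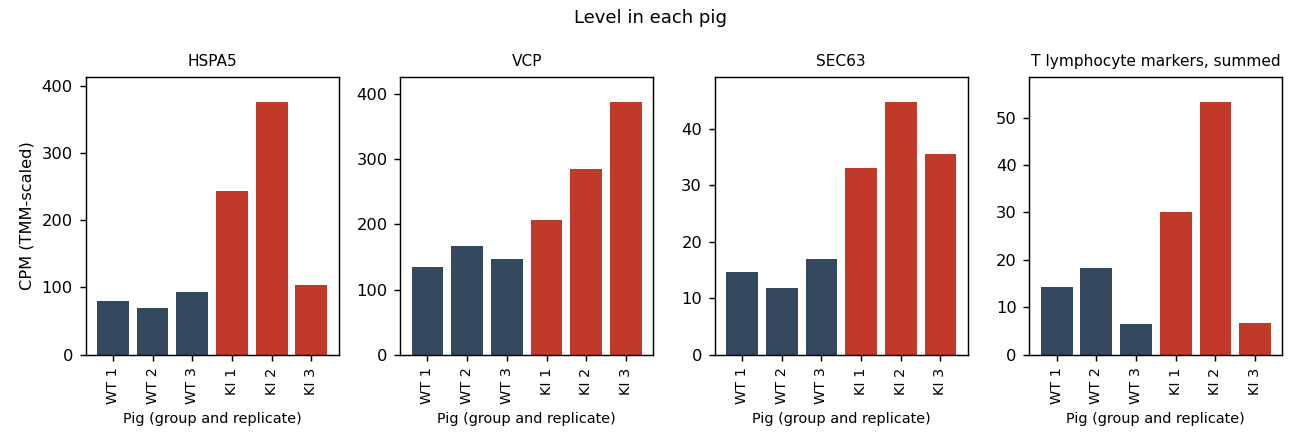
CPM in each pig, on axes that start at 0, for *HSPA5*, *VCP*, *SEC63* and the sum of 11 T lymphocyte markers, with WT pigs in dark blue and UCP1 KI pigs in red. Among UCP1 KI pigs, *HSPA5* and the T lymphocyte markers are highest in replicate 2 and lowest in replicate 3. The macrophage and B lymphocyte markers, not drawn here, share this. In UCP1 KI replicate 3 *HSPA5* is still above all WT pigs. WT replicate 2 is its lowest pig but the highest WT pig for the T lymphocyte markers. *VCP* is highest in UCP1 KI replicate 3 at 387 CPM, and *SEC63* is above 33 CPM in each UCP1 KI pig.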

How the data were processed

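The authors sequenced mRNA libraries in paired ends, and per the labels and methods used FastQC 0.11.2, Trimmomatic 0.36, HISAT2 2.0, bedtools 2.26.0, StringTie 1.3.3b and DESeq2 1.12.4 with the assembly Sscrofa11.1. The program that made the counts is not given in the sources used here. The deposited values are raw counts of reads per Ensembl gene, without normalization. The whole table was fitted in R 4.3.3 with edgeR 4.0.16 (filterByExpr, TMM, quasi-likelihood F test, genotype as the only term, common dispersion 0.178). The limits of p and fold change are those of the study. Standard errors are the log2 fold change divided by the square root of F. Exact tests on log2(CPM + 1) enumerated 20 assignments of the pigs. DESeq2 1.42.0 and limma 3.58.1 served as alternatives, and the procedure was tested on simulated counts. P-values from edgeR set the difference between genotypes against the spread of pigs within groups, estimated with information shared over genes. They cover these 6 samples only.

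Symbols came from a table of Ensembl names, which matched 14864 genes. Of all genes listed, 36 matched no row and 10 had too few counts. The members and lists were chosen with earlier results of these data known, and the T lymphocyte list after its values were seen. Named were all members, a set of stress genes whatever their values, up to 5 higher and 5 lower genes past the limits with the smallest p in each pathway list, and the 5 profiles nearest to *HSPA5*.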

Additional observations from a re-analysis of the deposited data

How the results depend on the processing

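DESeq2, its size factors in edgeR, no filter on low counts, a minimum of 10 counts per pig, and no limit on the fold change each left the same 4 members past the limits. With library size only the median of all genes moved from -0.02 to 0.24 and that of the members from 0.67 to 0.96. *CALR* (0.75) and *XBP1* (0.96) then passed the limits too, the genes past them in the pathway lists rose from 19 to 32, and 82.7% of all genes past the limits were higher in place of 46.9%. *EIF2AK3* (0.14) and *SYVN1* (0.0171) changed sign there. With limma *HSP90B1* (1.01) was not past the limits. In the fit with the replicate number as a block, *HSP90B1* (1.001) was not past them either, with an unadjusted p of 0.114 from edgeR, and *DNAJC1* (0.83), *FKBP14* (0.95), *MANF* (0.83) and *DNAJC25* (-0.64) also lost the p limit. That block gave 1114 genes in all, beside 1097 without it. The replicate numbers were not shown to pair the pigs, since same-numbered deviations correlated at 0.004, 0.09 and 0.28 and 1 of 3 UCP1 KI pigs correlated best with its own number. *CRELD2* changed sign with the block (-0.00716) and with limma (-0.00556).

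With each pig left out in turn, 1 to 5 members, 8 to 31 pathway genes and 678 (without UCP1 KI replicate 2) to 1541 (without WT replicate 3) genes in all were past the limits. The log2 fold changes ranged from 0.53 to 1.68 for *HSP90B1*, 0.74 to 1.71 for *PDIA4*, 0.23 to 0.66 for *CALR*, 0.47 to 1.14 for *XBP1* and 0.56 to 0.91 for *HERPUD1*. For *CANX* they ran from -1.31 to 0.48, for *ERN1* from -0.0426 to 0.63, for *EIF2AK3* from -0.18 to 0.0125, for *DNAJB9* from -0.0494 to 0.60 and for *CRELD2* from -0.23 to 0.21, with -0.06 without WT replicate 1. The causes were not tested. The lowest count of a member in a pig was 190, for *CANX* in WT replicate 2.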

Other observations

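The sarcoplasmic reticulum, the part of the ER that the chaperone lists do not cover, had 11 tested genes of calcium storage and release, of which 0 were past the limits in the edgeR comparison with the same filter and scaling as for the chaperones. The count was 1 lower gene with DESeq2, with its size factors in edgeR, with a minimum of 10 counts per pig, with the replicate block and with limma. Their median log2 fold change was -0.35, and 9 of the 11 were highest in WT replicate 3, the highest pig for 14.8% of all genes tested and for 0 of the 9 members. *ATP2A1*, the calcium pump of fast fibres, was at 4234 CPM on average in UCP1 KI pigs and 4062 CPM in WT pigs. *CASQ1*, which binds the stored calcium, was at 1530 and 2065 CPM, a log2 fold change of -0.43. *TRDN*, which anchors it at the release channel, had the smallest p, 0.0523 from edgeR, at -0.77. These genes were named after their values were seen. Without WT replicate 1, 3 of the 11 genes were past the limits, 2 higher and 1 lower, 1 was lower without UCP1 KI replicate 3, and the median lay between -0.52 and -0.07 over the fits with 1 pig left out.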
